A study of Mus musculus with 20 samples.

Results

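Collagen chain genes are the mouse genes whose symbol is Col, a number, a and a number, and the microarray used here carries 82 probe-sets for 42 of them, out of 45101 probe-sets, which cover 18194 genes by single symbols. The rule reads the symbol and no measured value. Each gene is represented by its probe-set with the highest mean over the 20 arrays, and 35 of the 42 passed the filter on low variation and were tested. Col6a6 and Col28a1 are not analysed here.

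The study asked whether antagonists of Toll-like receptors (TLRs) act on the skin inflammation that the Th17-sustaining cytokine IL-23 induces in the mouse. The 4 groups were IL-23 with IMO-8400 (an antagonist of TLR7, TLR8 and TLR9), IL-23 with IMO-3100 (an antagonist of TLR7 and TLR9), IL-23 with saline, and naïve skin, with 5 mice and 1 array per mouse in each. All were female C57BL/6 mice bought at 6 weeks of age and housed for 1 week, with no transgene or deleted gene. The 3 IL-23 groups received 3 µg of IL-23 intradermally in the back on each day from day 1 to day 4, then 15 mg/kg of antagonist, or phosphate-buffered saline, under the skin at a distant site on days 4, 5 and 6. Full-thickness skin was taken where IL-23 had been injected, on day 7. No group given a vehicle in place of IL-23 is described, so IL-23 and the injections themselves cannot be told apart. IL-23 injections began before the antagonists, so the antagonist groups are skin treated after IL-23 had been started.

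Collagens are built from 3 chains wound into a triple helix. Fibrillar collagens, chiefly types I, III and V in the dermis, form the fibrils that carry tension, and fibril-associated collagens sit on the fibril surface. Type IV collagen forms the sheet of the basement membrane, in which its 6 chains assemble as 3 trimers: the widespread trimer of Col4a1 and Col4a2, the trimer of Col4a3, Col4a4 and Col4a5, and a trimer of Col4a5 and Col4a6 found under the epidermis and around smooth muscle. Type VII collagen anchors the basement membrane to the dermis, and type XVII, a transmembrane chain, belongs to the hemidesmosomes that hold basal keratinocytes to it.

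The genes of the type IV chains lie in pairs, head to head on opposite strands with no protein-coding gene between them: Col4a1 with Col4a2 on chromosome 8, Col4a3 with Col4a4 on chromosome 1, and Col4a5 with Col4a6 on chromosome X. The start sites of the promoter entries of Col4a5 and Col4a6 are 1343 bases apart in RefSeq. Both genes are annotated from further upstream, so 49 bases of Col4a5 and 19 of Col4a6 next to those sites are left out below. Sequence before their start sites is printed because both genes were DEGs, in the same direction, in each comparison of saline with naïve mice and of an antagonist with saline mice, and that of Col8a1 and Col24a1 because they were the chains that rose with IL-23. All are from RefSeq on the GRCm38.p6 build, 5′ to 3′ on the strand of the gene and cut where any annotated gene begins, and 33 of the 42 genes had an entry there. Capitals mark a GC box, a CCAAT box or a TATA box, searched on both strands. The GC box was read as GGGCGG. The CCAAT box was read as the letters of its name, and the TATA box as TATAAA.
Col4a5, chrX:141475169-141475369, + strand: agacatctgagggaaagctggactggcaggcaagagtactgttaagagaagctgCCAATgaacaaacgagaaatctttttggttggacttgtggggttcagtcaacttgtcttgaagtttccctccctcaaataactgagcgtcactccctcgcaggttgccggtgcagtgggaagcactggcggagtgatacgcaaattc
Col4a6, chrX:141474096-141474326, - strand: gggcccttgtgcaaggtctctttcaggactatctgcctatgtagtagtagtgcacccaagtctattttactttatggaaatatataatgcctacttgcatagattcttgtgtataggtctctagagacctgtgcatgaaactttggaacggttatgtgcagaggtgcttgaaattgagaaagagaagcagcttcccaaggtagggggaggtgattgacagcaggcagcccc
Col8a1, chr16:57754738-57754987, - strand: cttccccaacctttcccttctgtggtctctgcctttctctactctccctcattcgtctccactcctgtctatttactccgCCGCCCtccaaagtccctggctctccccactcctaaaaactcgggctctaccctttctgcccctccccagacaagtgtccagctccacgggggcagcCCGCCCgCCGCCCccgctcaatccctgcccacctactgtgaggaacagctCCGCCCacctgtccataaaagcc
Col24a1, chr3:145292222-145292471, + strand: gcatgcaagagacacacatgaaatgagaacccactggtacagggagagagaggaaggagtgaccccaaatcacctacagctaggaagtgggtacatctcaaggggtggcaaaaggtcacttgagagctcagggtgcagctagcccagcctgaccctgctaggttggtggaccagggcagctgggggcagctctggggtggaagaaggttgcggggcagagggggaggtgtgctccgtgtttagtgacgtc

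The 201 bases of Col4a5 held 1 CCAAT box, which 28.6% of 32851 mouse promoters held in a window of that length and place. Col8a1 held 4 GC boxes, and 32.7% of promoters held at least 1 over the same 250 bases. No GC, CCAAT or TATA box was found in the windows of Col4a6 and Col24a1, and neither the letters TGANTCA (the AP-1 site, in 6.75% of windows of 250 bases) nor TTCNNNGAA (the STAT site, in 7.02%) occurred in any of the 4 windows.

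Expression is given as log2 values from GCRMA, so that a difference of 1 is a 2-fold change, and the lowest value of every array is 2.02. A probe-set is called a differentially expressed gene (DEG) when limma gave an FDR under 0.05 over all 30960 probe-sets tested and a fold-change (FCH) over 2. A group with all 5 arrays below 3 is read as near background, and folds against it are stated as "at least", with that group set to 3. Of the 42 chains, 9 were below 3 on all 20 arrays: the cartilage chains Col2a1, Col9a1, Col9a2, Col10a1 and Col11a2, and Col6a4, Col19a1, Col25a1 and Col26a1. Array medians lay between 6.09 and 6.29, and fibroblast marker means lay between 10.78 and 11.49 and basal keratinocyte marker means between 11.96 and 12.95 over the 20 mice, as skin should hold. In a bulk sample, fewer cells of a type and less RNA per cell cannot be told apart.

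Several mice and markers stood apart before any collagen was considered. The mean of 18 markers of the growing (anagen) hair follicle was 13.24, 11.91, 9.74, 4.83 and 3.57 in the 5 naïve mice, between 2.91 and 3.24 in all but 1 of the IL-23-injected mice, and 6.33 in replicate 5 of IMO-8400. Naïve replicate 1, the mouse with the highest hair level, also had the lowest fibroblast, endothelial, skeletal muscle and macrophage marker means of its group. Of 6 adipocyte markers, 5 fell with IL-23 and 3 were then higher with each antagonist. Of 7 mural cell and smooth muscle markers, 3 fell with IL-23, and 2 were then higher with IMO-8400 and 0 with IMO-3100 (also 0 at an unadjusted p under 0.05). Among all genes tested, 8.60% fell with IL-23. Against saline, 4.62% were higher with IMO-8400 and 2.68% with IMO-3100 (17.7% at that p).

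IL-23 with saline, set against naïve skin, gave 2 higher and 6 lower chains among the 35 tested. Col8a1 and Col24a1 rose, and Col4a5, Col4a6, Col8a2, Col15a1, Col16a1 and Col11a1 fell. Over all 13740 genes tested by 1 probe-set each, 9.02% were higher DEGs and 8.60% lower DEGs, against 5.71% and 17.1% of the tested chains. The median difference of the chains was -0.37, with 27 of 35 below 0, beside a median of -0.01 over all genes tested. Setting groups near background to 3 left that median at -0.37.

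**Figure D1:**
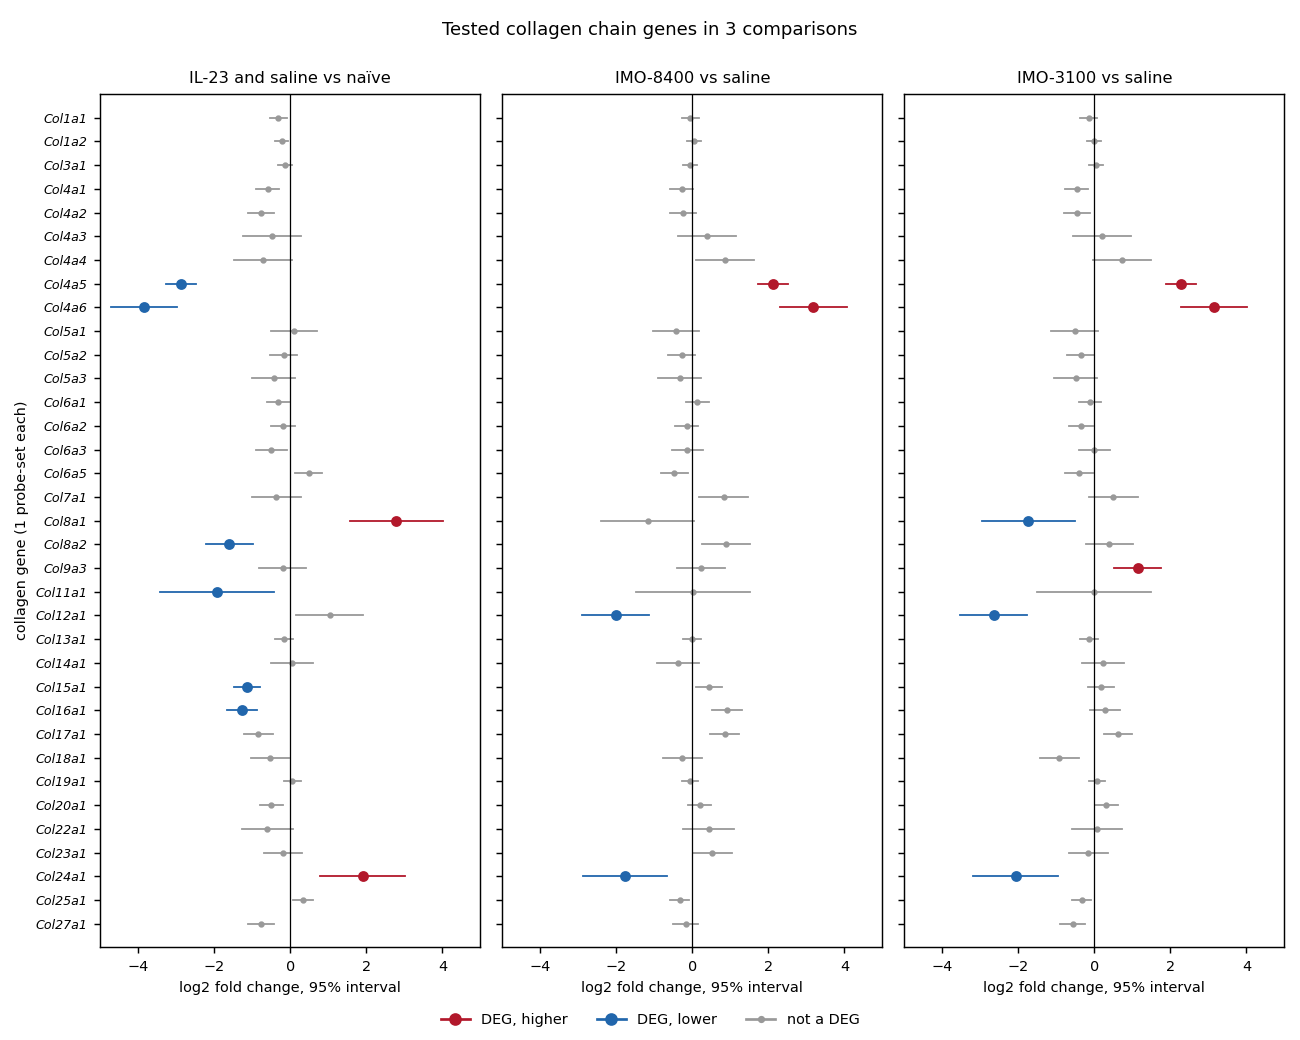
Log2 fold change (x axis, with 95% intervals) of the 35 tested collagen genes (y axis, 1 probe-set each) for IL-23 with saline against naïve skin, IMO-8400 against saline and IMO-3100 against saline. Red and blue mark DEGs that were higher or lower, grey marks the rest, and fitted values of groups near background are plotted as they are. Col4a5 and Col4a6 lie far left of 0 in the first panel and far right of 0 in the other panels.

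The largest falls with IL-23 among the 35 chains were those of Col4a6 and Col4a5, the chains of the epidermal and smooth muscle trimer. Col4a5 (probe-set 1425476_at) had 8.92, 9.08, 8.48, 9.40 and 9.05 in IMO-8400 mice and 8.94, 8.69, 9.58, 9.21 and 9.25 in IMO-3100 mice. It had 6.91, 7.02, 6.39, 6.92 and 7.07 in saline mice, against 10.00, 9.87, 9.39, 9.52 and 9.90 in naïve mice. All 5 saline mice lay below every mouse of each other group, and the antagonist mice lay mostly below the naïve mice, with some overlap. The difference between saline and naïve mice was -2.87 (95% interval -3.27 to -2.48, FCH 7.34, FDR = 5.04e-09). IMO-8400 mice were 2.12 above saline mice (1.73 to 2.51, FCH 4.35, FDR = 1.12e-06) and IMO-3100 mice 2.27 above them (1.88 to 2.67, FCH 4.83, FDR = 4.94e-07). Neither antagonist group was a DEG against naïve mice, with differences of -0.75 for IMO-8400 (FDR = 0.0105) and -0.60 for IMO-3100 (FDR = 0.0228).

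Col4a6 (1421007_at), its partner in the gene pair and in the trimer, was likewise lowest in saline mice, with a wider spread there. Its values were 9.42, 9.01, 8.09, 9.56 and 8.82 in IMO-8400 mice and 8.76, 9.30, 8.90, 8.86 and 8.85 in IMO-3100 mice. They were 4.19, 5.83, 5.15, 7.28 and 6.52 in saline mice, against 9.21, 9.98, 10.10, 9.49 and 9.43 in naïve mice. Saline mice again lay below all the others, while the antagonist and naïve mice overlapped. The difference between saline and naïve mice was -3.85 (-4.72 to -2.97, FCH 14.4, FDR = 1.63e-06), and the differences from saline were 3.19 with IMO-8400 (2.31 to 4.06, FCH 9.10, FDR = 6.51e-05) and 3.14 with IMO-3100 (2.27 to 4.02, FCH 8.82, FDR = 8.56e-05).

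A second probe-set of each gene behaved alike. For Col4a5 (1425475_at) the difference was -2.62 between saline and naïve mice (FDR = 6.33e-10), 2.02 between IMO-8400 and saline mice (FDR = 4.81e-08) and 1.81 between IMO-3100 and saline mice (FDR = 2.14e-07). For Col4a6 (1421006_at) the differences were -4.40 (FDR = 1.58e-07), 3.49 (FDR = 1.53e-05) and 3.78 (FDR = 6.62e-06). All 6 were DEGs, although 3 of the 5 saline mice were below 3 at the second Col4a6 probe-set, so its fold sizes depend on the floor of the scale. Every one of these calls held when any 1 of the 20 mice was left out at the representative probe-set.

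Marker means of other cell types are given beside these values. Col4a5 was 9.90 in the naïve mouse with a hair mean of 3.57 and 10.00 in that with a hair mean of 13.24, and Col4a6 was 9.43 and 9.21 in the same mice. IMO-3100 and saline mice differed in both genes at hair means of 2.91 to 3.06 in IMO-3100 mice and 2.95 to 3.17 in saline mice. The mural and smooth muscle marker mean lay between 10.92 and 11.43 in IMO-8400 mice and between 10.15 and 10.68 in IMO-3100 mice. It lay between 9.96 and 10.63 in saline mice and between 11.08 and 11.45 in naïve mice. The saline range overlapped that of IMO-3100 mice and lay below those of IMO-8400 and naïve mice. Adipocyte marker means were lowest in saline and highest in naïve mice, each without overlap with the antagonist groups, at 11.60 to 11.91 in IMO-8400 mice, 11.31 to 11.83 in IMO-3100 mice, 10.13 to 11.19 in saline mice and 12.34 to 12.76 in naïve mice. Skeletal muscle marker means were 14.08 to 14.40 in IMO-8400 and 13.81 to 14.16 in IMO-3100 mice. They were 13.31 to 13.89 in saline and 13.57 to 14.50 in naïve mice. Basal keratinocyte marker means were 12.54 to 12.82 in IMO-8400 and 12.23 to 12.58 in IMO-3100 mice. They were 11.96 to 12.77 in saline and 12.52 to 12.95 in naïve mice. Of those 6 markers, 1 fell with IL-23 (Krt15, -1.04, FDR = 4.5e-05), where 8.60% of all genes did. The part of these cell types in the result was not tested.

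**Figure D2:**
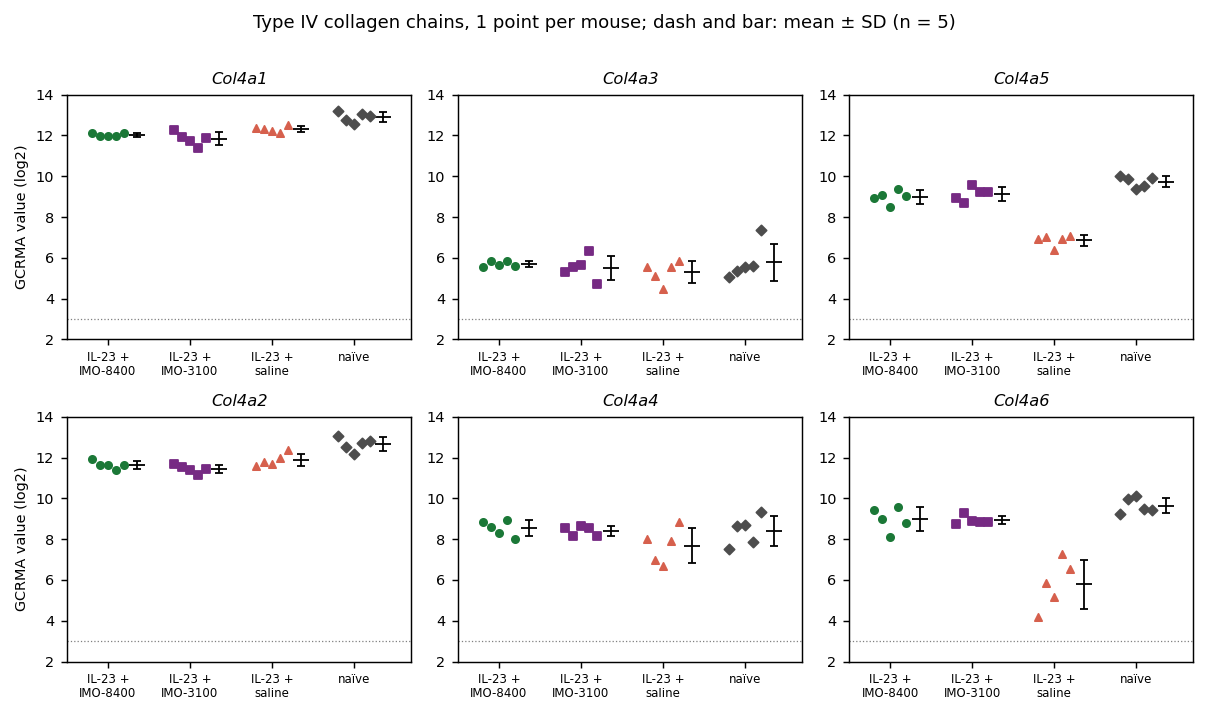
GCRMA values (y axis, log2) of the 6 type IV collagen chains in each mouse, by group (x axis), with the mean and SD beside the 5 points and a dotted line at 3, the background limit. Saline mice are the lowest group without overlap for Col4a5 and Col4a6, while Col4a1 and Col4a2 are lowest in the antagonist groups.

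The widespread type IV chains had another order of groups. Col4a1 (1452035_at) had 12.12, 11.96, 11.98, 11.96 and 12.14 in IMO-8400 mice and 12.29, 11.94, 11.73, 11.40 and 11.86 in IMO-3100 mice. It had 12.38, 12.34, 12.21, 12.10 and 12.51 in saline mice, against 13.22, 12.76, 12.56, 13.05 and 12.94 in naïve mice. Every IL-23-injected mouse lay below every naïve mouse, and the antagonist mice lay mostly below the saline mice. The difference between saline and naïve mice was -0.60 (FDR = 0.00257), short of the FCH threshold, and a second probe-set (1426348_at) was a DEG at -1.09 (FDR = 6.67e-05). IMO-3100 mice were -0.47 from saline mice (FDR = 0.0218) and IMO-8400 mice -0.28 (FDR = 0.157).

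Col4a2 (1424051_at) had 11.91, 11.64, 11.63, 11.38 and 11.63 in IMO-8400 mice and 11.69, 11.52, 11.37, 11.14 and 11.43 in IMO-3100 mice. It had 11.58, 11.78, 11.70, 11.99 and 12.35 in saline mice, against 13.06, 12.50, 12.17, 12.71 and 12.82 in naïve mice. Both antagonist groups lay wholly below naïve mice, and saline mice overlapped both sides. Against naïve mice Col4a2 fell with IMO-8400 (-1.01, -1.36 to -0.67, FDR = 0.000444) and with IMO-3100 (-1.22, -1.57 to -0.88, FDR = 4.79e-05), and the saline difference of -0.77 (FDR = 0.00101) missed the FCH threshold. Against saline, the point estimates of both chains of this pair were below 0 with each antagonist, and those of Col4a5 and Col4a6 were above 0.

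Col4a3 and Col4a4, the remaining pair, passed no test at the representative probe-sets. Col4a4, which joins Col4a5 in a trimer known from kidney and other specialised membranes, had a median of 8.57 in IMO-8400 mice, 8.52 in IMO-3100 mice, 7.90 in saline mice and 8.64 in naïve mice, with overlapping groups. Its differences were -0.72 between saline and naïve mice (FDR = 0.113), 0.85 between IMO-8400 and saline mice (FDR = 0.0878) and 0.73 between IMO-3100 and saline mice (FDR = 0.148). Those of Col4a3 were -0.48, 0.39 and 0.21.

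Among partners of the basement membrane, 2 of 16 tested genes fell with IL-23 and 0 rose (also 0 at an unadjusted p under 0.05): Lama5 (-1.06, FDR = 0.015), a laminin chain of the epidermal basement membrane, and Lama2 (-1.44, FDR = 0.00011), the laminin chain of muscle and nerve. At that p, 9 of the 16 were lower. Of all genes tested, 8.60% were lower and 9.02% higher, and at that p 27.6% were lower and 27.2% higher. The median of the 16 was -0.47. Lama5 had 10.76, 9.50, 9.61, 8.57 and 8.43 in naïve mice, highest in the mouse with the highest hair marker mean. It had 7.62, 8.03, 8.37, 8.78 and 8.77 in saline mice, which overlapped them. The part of hair follicles in this value was not tested. Lama2 was higher than in saline mice with IMO-8400 by 1.21 (FDR = 0.0013), beside 0.94 with IMO-3100 (FDR = 0.0073), short of the FCH threshold. Dst, which links keratin filaments to hemidesmosomes, was higher with IMO-3100 by 1.01 (FDR = 0.00068), beside 0.95 with IMO-8400 (FDR = 0.00094). Nid2, a linker of laminin and type IV collagen, was lower with IMO-3100 (-1.06, FDR = 0.0035), beside -0.89 with IMO-8400 (FDR = 0.0096). Its saline difference from naïve was -0.95 (FDR = 0.0033), short of the FCH threshold. With the antagonists it lay further below naïve mice, by -1.84 with IMO-8400 (FDR = 5.0e-05) and -2.01 with IMO-3100 (FDR = 1.2e-05). None of the 16 was a DEG between the antagonists in limma, and at an unadjusted p under 0.05 there were 5 higher and 0 lower with IMO-8400. At that p, 15.0% of all genes were higher and 8.14% lower.

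Col17a1 and Col7a1, which join the epidermis to that membrane, were no DEGs in any comparison. Col17a1 (1418799_a_at) had 12.99, 13.13, 12.73, 13.12 and 12.78 in IMO-8400 mice and 12.77, 12.72, 12.62, 12.62 and 12.87 in IMO-3100 mice. It had 11.39, 11.96, 12.30, 12.45 and 12.39 in saline mice, against 12.38, 13.12, 13.18, 13.07 and 12.95 in naïve mice. Saline mice lay below both antagonist groups without overlap and below 4 of the 5 naïve mice. The differences, all short of the FCH threshold, were -0.84 between saline and naïve mice (FDR = 0.00118), 0.85 between IMO-8400 and saline mice (FDR = 0.0024) and 0.62 between IMO-3100 and saline mice (FDR = 0.017).

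Col7a1 (1419613_at) had 9.59, 9.17, 8.98, 9.26 and 8.88 in IMO-8400 mice and 8.50, 8.93, 8.80, 8.81 and 9.23 in IMO-3100 mice. It had 7.27, 8.14, 8.27, 9.07 and 9.03 in saline mice, against 7.69, 9.16, 8.98, 8.89 and 8.91 in naïve mice. The groups overlapped, and replicate 1 was the lowest mouse of both the saline and the naïve group. The saline difference from naïve was -0.37 (-1.01 to 0.27, FDR = 0.334), and that of IMO-8400 from saline was 0.82 (0.18 to 1.46, FDR = 0.0522).

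The chains that form the bulk of dermal fibrils differed little at their representative probe-sets. Col1a1 (1423669_at) had 14.27, 14.22, 14.35, 14.39 and 14.58 in IMO-8400 mice and 14.40, 14.28, 14.03, 14.22 and 14.39 in IMO-3100 mice. It had 14.34, 14.38, 14.36, 14.41 and 14.57 in saline mice, against 14.35, 14.72, 14.74, 14.86 and 14.95 in naïve mice. Apart from naïve replicate 1, the naïve mice lay above all the others. The saline difference from naïve was -0.31 (-0.54 to -0.09, FDR = 0.0248), and the differences from saline were -0.05 with IMO-8400 (-0.28 to 0.18) and -0.15 with IMO-3100 (-0.37 to 0.08).

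Col1a2 (1450857_a_at), its partner in type I collagen, had 14.51, 14.55, 14.54, 14.59 and 14.67 in IMO-8400 mice and 14.57, 14.49, 14.46, 14.45 and 14.64 in IMO-3100 mice. It had 14.50, 14.52, 14.44, 14.53 and 14.64 in saline mice, against 14.45, 14.78, 14.78, 14.86 and 14.91 in naïve mice. The pattern was that of Col1a1, at a saline difference from naïve of -0.23 (FDR = 0.0316). Col3a1 (1427883_a_at), the type III chain, had 14.41, 14.48, 14.44, 14.57 and 14.60 in IMO-8400 mice and 14.52, 14.50, 14.70, 14.53 and 14.77 in IMO-3100 mice. It had 14.57, 14.58, 14.50, 14.61 and 14.57 in saline mice, against 14.48, 14.69, 14.63, 14.89 and 14.88 in naïve mice. All 4 groups of Col3a1 overlapped, with a saline difference from naïve of -0.15 (-0.33 to 0.03, FDR = 0.176). These 3 probe-sets lay at percentile 99.0 or higher, to 3 digits, of their own array in every mouse, near the top of the scale, and whether this compressed their differences was not tested. Less bright second probe-sets gave saline differences of -0.11 for Col1a1 (1455494_at), -0.08 for Col1a2 (1423110_at) and 0.03 for Col3a1 (1427884_at). Their means in IMO-8400, IMO-3100 and saline mice were 13.42, 13.41 and 13.55 for Col1a1 and 13.64, 13.75 and 13.89 for Col1a2. In that order they were 12.42, 12.78 and 12.93 for Col3a1. A further Col1a2 probe-set (1446326_at) had 8.67, 8.60 and 9.26, beside 9.04 in naïve mice. Antagonist and saline mice overlapped at these probe-sets, except for Col1a1 with IMO-3100.

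The minor fibril chains Col5a1 and Col5a2, which set fibril diameter, gave no DEG. Col5a1 (1434479_at) had 10.97, 11.04, 11.44, 11.16 and 12.17 in IMO-8400 mice and 11.29, 11.33, 11.20, 11.17 and 11.29 in IMO-3100 mice. It had 11.52, 11.66, 11.75, 11.72 and 12.26 in saline mice, against 10.90, 11.46, 11.02, 12.62 and 12.37 in naïve mice. The naïve mice spanned the values of all other groups, and the saline difference was 0.11 (FDR = 0.789). Col5a2 (1422437_at) had 12.85, 12.96, 13.32, 13.10 and 13.60 in IMO-8400 mice and 13.20, 12.93, 12.94, 13.01 and 13.34 in IMO-3100 mice. It had 13.35, 13.54, 13.38, 13.44 and 13.51 in saline mice, against 13.01, 13.42, 13.70, 13.89 and 14.05 in naïve mice. Saline mice lay above IMO-3100 mice without overlap for both genes, by point estimates of -0.52 for Col5a1 (FDR = 0.194) and -0.36 for Col5a2 (FDR = 0.122) that passed no test. A second probe-set of Col5a2 (1450625_at) had 10.64 to 11.12 in IMO-8400 mice and 10.66 to 11.17 in IMO-3100 mice, against 11.37 to 11.65 in saline mice. Its differences from saline, with no overlap, were -0.64 with IMO-8400 (FDR = 0.00573) and -0.53 with IMO-3100 (FDR = 0.0176), under the FDR threshold and short of the FCH threshold. Col5a3 differed by -0.44 between saline and naïve mice (FDR = 0.194).

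Type VI collagen forms beaded filaments between fibrils and cells. Col6a1 (1448590_at) had 12.74, 12.78, 12.99, 12.73 and 12.88 in IMO-8400 mice and 12.81, 12.48, 12.43, 12.37 and 12.79 in IMO-3100 mice. It had 12.70, 12.50, 12.40, 12.87 and 13.01 in saline mice, against 12.58, 12.98, 12.99, 13.26 and 13.28 in naïve mice. Col6a3 (1424131_at) had 11.53, 11.76, 12.14, 11.94 and 12.12 in IMO-8400 mice and 12.10, 11.78, 12.13, 11.84 and 12.28 in IMO-3100 mice. For both genes all 4 groups overlapped. Col6a3 had 11.94, 12.03, 11.85, 12.13 and 12.21 in saline mice, against 12.05, 12.42, 12.08, 13.24 and 12.86 in naïve mice. The saline differences from naïve were -0.32 for Col6a1 (FDR = 0.0721), -0.19 for Col6a2 (FDR = 0.306) and -0.50 for Col6a3 (FDR = 0.0415), and no chain of this type was a DEG in any comparison.

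**Figure D3:**
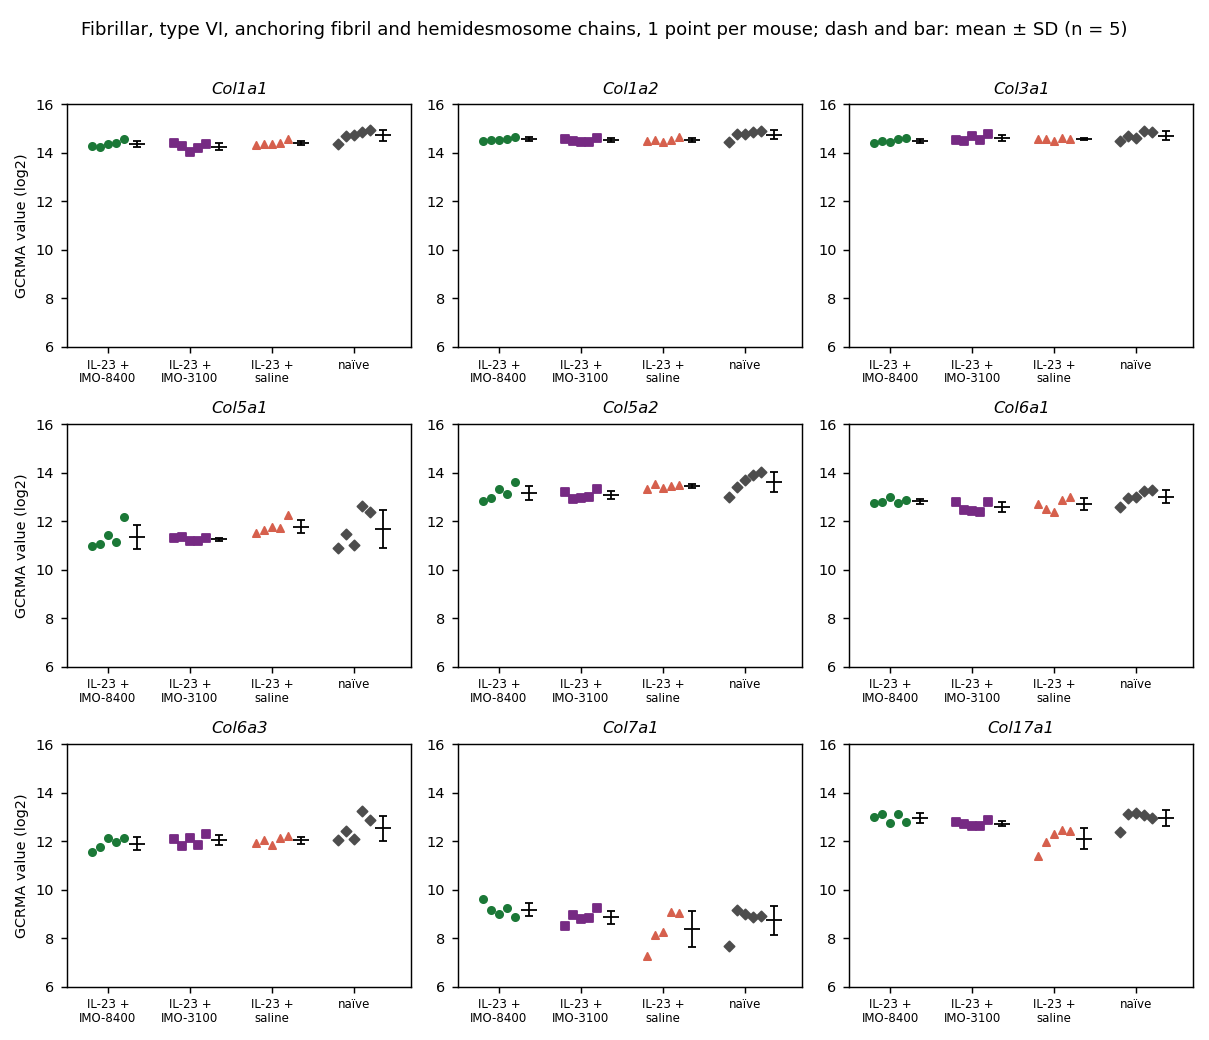
GCRMA values (y axis, log2) of 9 fibrillar, type VI, type VII and type XVII chains in each mouse, by group (x axis), with the mean and SD beside the 5 points. The groups lie close together for Col1a1, Col1a2 and Col3a1, and saline mice are lowest for Col17a1.

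Col8a1 and Col24a1 were the chains that rose with IL-23. Col8a1 (1455627_at), a short chain of network-forming type VIII collagen, had 5.74, 5.90, 7.06, 5.65 and 7.56 in IMO-8400 mice and 5.10, 4.47, 6.27, 5.66 and 7.54 in IMO-3100 mice. It had 7.36, 8.32, 8.67, 6.03 and 7.37 in saline mice, against 5.17, 5.58, 4.26, 3.60 and 5.20 in naïve mice. Saline mice lay above all naïve mice, and both antagonist groups overlapped the saline mice. Col8a1 rose by 2.79 with IL-23 and saline (1.57 to 4.01, FCH 6.91, FDR = 0.000907) and was lower with IMO-3100 than with saline (-1.74, -2.96 to -0.52, FDR = 0.0339). The IMO-3100 call was lost when any 1 of 6 mice was left out (IMO-3100 replicates 1, 2 and 4 and saline replicates 2, 3 and 5), with FDR up to 0.0961. The difference with IMO-8400 was -1.17 (-2.39 to 0.05, FDR = 0.142), and IMO-8400 minus IMO-3100 was 0.57 (-0.65 to 1.79, FDR = 0.62). A second probe-set (1418440_at) was near background in IMO-3100 and naïve mice. It was at least 2.03-fold higher in saline than in naïve mice (FDR = 0.00376), at least 2.03-fold lower in IMO-3100 than in saline mice (FDR = 0.0102), and differed by -1.28 between IMO-8400 and saline mice (FDR = 0.0376).

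Its partner chain Col8a2 (1434667_at) was lower with IL-23. It had 8.17, 8.24, 6.62, 7.37 and 7.56 in IMO-8400 mice and 7.64, 7.50, 6.94, 6.92 and 6.53 in IMO-3100 mice. It had 6.26, 6.27, 6.66, 7.42 and 6.92 in saline mice, against 8.31, 8.70, 8.56, 7.98 and 8.04 in naïve mice. Saline and IMO-3100 mice lay below all naïve mice, and IMO-8400 mice overlapped both saline and naïve mice. The fall with IL-23 and saline was -1.61 (-2.23 to -0.98, FCH 3.05, FDR = 0.000326). IMO-3100 mice were still lower than naïve mice (-1.21, FDR = 0.00598), and IMO-8400 mice were 0.88 above saline mice (FDR = 0.0334), short of the FCH threshold.

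Col24a1 (1453418_at), a fibrillar chain of low abundance, was near background in IMO-3100 and naïve mice. It had 2.23, 2.23, 2.23, 2.02 and 3.51 in IMO-8400 mice and 2.02, 2.23, 2.23, 2.02 and 2.23 in IMO-3100 mice. It had 2.49, 5.87, 6.08, 3.58 and 3.05 in saline mice, against 2.13, 2.23, 2.23, 2.76 and 2.23 in naïve mice. Saline replicates 2 and 3 were far above every other mouse and saline replicate 1 lay within the naïve range. It was at least 2.32-fold higher in saline than in naïve mice (FDR = 0.00733) and at least 2.32-fold lower in IMO-3100 than in saline mice (FDR = 0.00827). The fitted difference of IMO-8400 from saline was -1.77 (FDR = 0.0185), a call lost without saline replicate 2 or 3 (FDR up to 0.0558).

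Col12a1, which coats fibrils and is known from tissue under tension and repair, was lower with both antagonists. Col12a1 (1434411_at) had 7.18, 7.71, 8.01, 7.44 and 8.45 in IMO-8400 mice and 6.28, 6.95, 7.45, 6.93 and 8.06 in IMO-3100 mice. It had 9.05, 9.90, 10.19, 9.59 and 10.17 in saline mice, against 10.36, 8.98, 7.73, 8.74 and 7.92 in naïve mice. Saline mice lay above both antagonist groups without overlap, while naïve replicate 1 was the highest mouse of all. The differences from saline were -2.02 with IMO-8400 (-2.90 to -1.14, FCH 4.06, FDR = 0.00209) and -2.65 with IMO-3100 (-3.53 to -1.76, FCH 6.26, FDR = 0.00036). The saline difference from naïve, 1.03 (0.15 to 1.92, FDR = 0.0533), missed the FDR threshold, and a second probe-set at a low level (1427391_a_at) was a DEG at 1.26 (FDR = 0.0124).

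Col12a1 was also lower with IMO-3100 than in naïve skin (-1.61, FDR = 0.00879). Of the 5 naïve mice the 2 highest were replicates 1 and 2, which were also those with the highest hair marker means, 13.24 and 11.91. Replicate 3, next with a hair mean of 9.74, had the lowest Col12a1 value of the naïve mice, 7.73. Without the 3 naïve mice of highest hair mean the IMO-3100 difference from naïve was no longer a DEG, an alternative chosen after seeing the data. It leaves 2 naïve mice and so less precision, and the part of hair follicles was not tested.

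Col15a1 and Col16a1 fell with IL-23. Col15a1 (1448755_at), a multiplexin chain of the basement membrane zone, had 10.37, 10.54, 10.52, 10.46 and 10.71 in IMO-8400 mice and 10.55, 10.36, 10.15, 10.02 and 10.21 in IMO-3100 mice. It had 9.93, 9.82, 9.75, 10.22 and 10.69 in saline mice, against 11.15, 11.07, 10.89, 11.53 and 11.44 in naïve mice. All 15 IL-23-injected mice lay below all naïve mice. The saline difference was -1.13 (-1.48 to -0.79, FCH 2.19, FDR = 3.12e-05), and neither antagonist group was a DEG against saline (0.44 with IMO-8400, FDR = 0.0521, and 0.18 with IMO-3100, FDR = 0.461).

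Col16a1 (1427986_a_at), a fibril-associated chain, had 10.67, 10.40, 10.53, 10.52 and 10.23 in IMO-8400 mice and 10.30, 9.91, 9.45, 9.54 and 10.00 in IMO-3100 mice. It had 9.32, 9.13, 9.34, 10.08 and 9.93 in saline mice, against 11.16, 10.76, 10.96, 10.69 and 10.55 in naïve mice. IMO-8400 mice lay above all saline mice, and IMO-3100 mice overlapped them. Col16a1 fell with IL-23 and saline (-1.26, -1.66 to -0.87, FCH 2.40, FDR = 4.33e-05), and the difference from saline was 0.91 with IMO-8400 (0.52 to 1.31, FDR = 0.00194), short of the FCH threshold, and 0.28 with IMO-3100 (-0.11 to 0.68, FDR = 0.29). The direct difference, IMO-8400 minus IMO-3100, was 0.63 (0.24 to 1.03, FDR = 0.0658) and did not pass. The mural and smooth muscle marker mean was 10.92 to 11.43 in IMO-8400 mice, 10.15 to 10.68 in IMO-3100 mice, 9.96 to 10.63 in saline mice and 11.08 to 11.45 in naïve mice, and its part in these values was not tested.

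**Figure D4:**
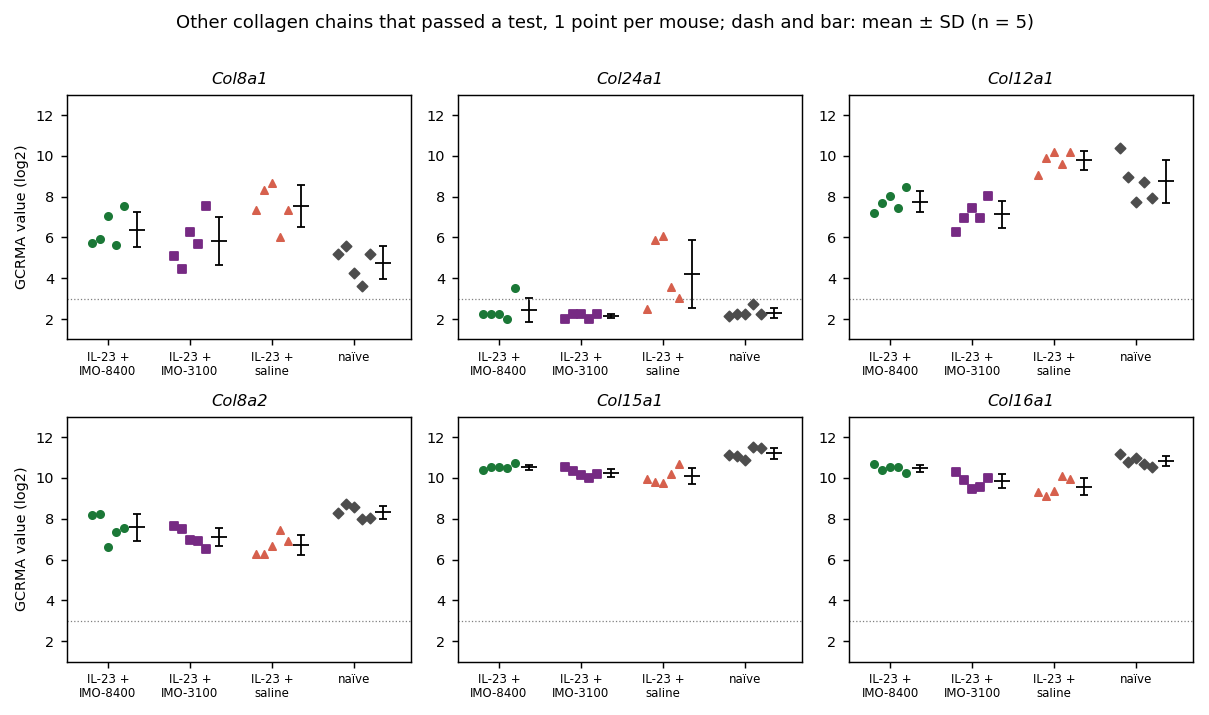
GCRMA values (y axis, log2) of Col8a1, Col24a1, Col12a1, Col8a2, Col15a1 and Col16a1 in each mouse, by group (x axis), with the mean and SD beside the 5 points and a dotted line at 3, the background limit. Saline mice are the highest on average for the first 3 chains, below naïve replicate 1 for Col12a1, and the lowest on average for the others.

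Col11a1, a minor fibrillar chain best known from cartilage, was measured above 3 in naïve replicates 1 and 2 alone. Col11a1 (1418599_at) had 2.22, 2.07, 2.03, 2.07 and 2.07 in IMO-8400 mice and 2.07, 2.07, 2.07, 2.02 and 2.07 in IMO-3100 mice. It had 2.04, 2.07, 2.07, 2.07 and 2.07 in saline mice, against 7.55, 5.45, 2.70, 2.07 and 2.21 in naïve mice. It was at least 1.99-fold lower in saline than in naïve mice (FDR = 0.0352), a call lost without naïve replicate 1, naïve replicate 2 or any 1 saline mouse (FDR up to 0.101). The 3 highest naïve mice were the same, and in the same order, as for the hair marker mean of 13.24, 11.91 and 9.74, and with that mean as a covariate the saline difference was 0.55 (FDR = 0.5). Replicate 5 of IMO-8400, with a hair mean of 6.33, had 2.07.

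**Figure D5:**
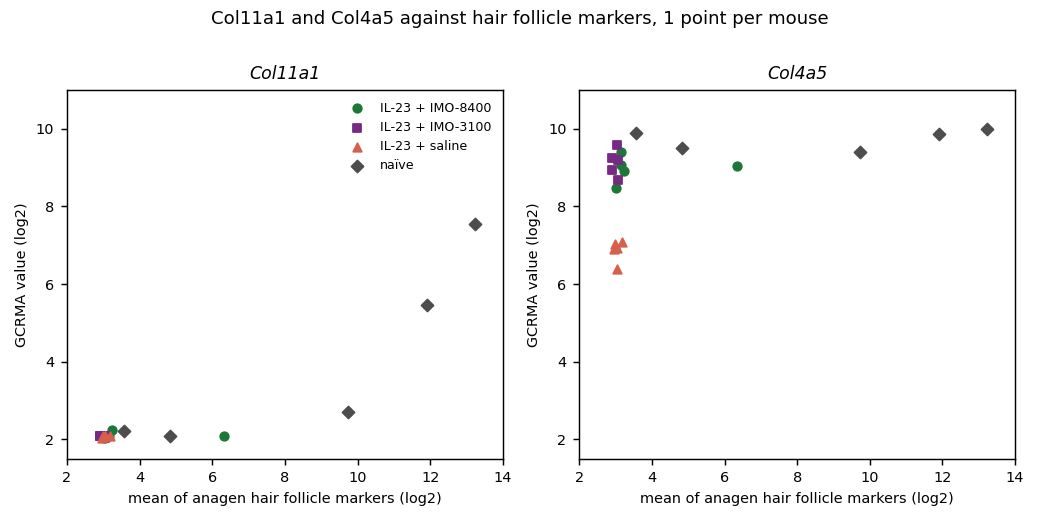
GCRMA value (y axis, log2) of Col11a1 (left) and Col4a5 (right) against the mean of 18 anagen hair follicle markers (x axis, log2) in each of the 20 mice, marked by group. Col11a1 is above 3 in the 2 naïve mice with the highest hair mean, while Col4a5 is near 10 in naïve mice at both ends of the x axis.

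Against saline, IMO-8400 gave 2 higher chains (Col4a5 and Col4a6) and 2 lower (Col12a1 and Col24a1) of 35. Among all genes tested, 4.62% were higher and 4.20% lower, against 5.71% in each direction for the chains. IMO-3100 gave 3 higher (Col4a5, Col4a6 and Col9a3) and 3 lower (Col12a1, Col24a1 and Col8a1), 8.57% in each direction, where 2.68% of all genes were higher and 4.66% lower. The median difference of the 35 chains was -0.05 with IMO-8400 and -0.01 with IMO-3100, beside 0.00 and -0.02 over all genes, and 0 for both with groups near background set to 3. Without saline replicate 4 or 5 the IMO-8400 count of higher chains was 5 or 4, and without saline replicate 2 or 3 its count of lower chains was 1.

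Col9a3 (1460693_a_at), a fibril-associated chain of cartilage, lay near background in most mice. It had 2.96, 2.97, 2.73, 2.69 and 2.72 in IMO-8400 mice and 2.73, 4.89, 4.50, 3.33 and 3.14 in IMO-3100 mice. It had 2.11, 2.71, 2.69, 2.69 and 2.70 in saline mice, against 3.12, 2.70, 2.72, 2.70 and 2.69 in naïve mice. Of the 20 mice, 4 of the 5 IMO-3100 mice and naïve replicate 1 were above 3. It was at least 1.65-fold higher in IMO-3100 than in saline mice (FDR = 0.00953), a call lost without IMO-3100 replicate 2 or 3, and a second probe-set (1460734_at) differed by 0.23 (FDR = 0.33).

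IMO-8400 and IMO-3100, given at the same dose and on the same days, were compared directly over all 35 tested chains with p-values adjusted over every probe-set tested. None was a DEG in either direction in limma, where 0.386% of all genes were higher and 0.138% lower with IMO-8400, nor had any an FDR under 0.05. At an unadjusted p under 0.05, 4 chains were higher and 2 lower, 11.4% and 5.71% of the 35, where 15.0% of all genes were higher and 8.14% lower. The intervals of the difference, IMO-8400 minus IMO-3100, were -0.54 to 0.24 for Col4a5, -0.83 to 0.92 for Col4a6 and -0.26 to 1.51 for Col12a1. Differences in the multiplexin chain Col18a1 (0.65, 0.14 to 1.16, FDR = 0.13) and the transmembrane chain Col23a1 (0.69, 0.18 to 1.20, FDR = 0.111) did not pass. Leaving out IMO-3100 replicate 1 gave 1 lower chain, Col9a3.

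Set against naïve skin, fewer chains were DEGs with IMO-8400 than with IMO-3100, a difference in counts that was not tested. With IMO-8400, 1 chain was lower (Col4a2), 2.86% of 35, and 0 were higher (1 at an unadjusted p under 0.05), where 4.77% of all genes were higher and 2.55% lower. With IMO-3100, 6 were lower (Col4a1, Col4a2, Col8a2, Col12a1, Col18a1 and Col27a1), 17.1%, and 0 were higher (1 at an unadjusted p under 0.05), where 5.76% of all genes were higher and 4.85% lower. At that unadjusted p, 17.3% of all genes were higher with IMO-8400 and 17.5% with IMO-3100. Col18a1 (1426955_at), the source of endostatin, ranged from 8.78 to 9.41 in IMO-3100 mice and from 10.01 to 11.56 in naïve mice, a difference of -1.46 (FDR = 0.000357). Col27a1 (1429549_at), a fibrillar chain, ranged from 4.70 to 5.29 in IMO-3100 mice and from 6.27 to 6.70 in naïve mice, a difference of -1.35 (FDR = 1.46e-05). A second probe-set of Col27a1 (1453191_at) was no DEG, at -0.52 (FDR = 0.005). Calls that rested on 1 mouse were Col4a1 with IMO-3100 (lost without IMO-3100 replicate 4 or naïve replicate 1) and Col4a2 with IMO-8400 (lost without IMO-8400 replicate 4 or naïve replicate 1, 4 or 5), where the difference came to lie just short of the FCH threshold. Leaving out 1 mouse gave 0 to 3 lower chains and 0 to 1 higher chains with IMO-8400 (3 without naïve replicate 3), and 1 higher chain, Col9a3, with IMO-3100 when IMO-3100 replicate 1, 4 or 5 or naïve replicate 1 was left out.

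The enzymes that build and fold collagen were then read beside the chains, as lists written from general knowledge. Of 16 tested genes of synthesis and folding, 1 fell with IL-23 (Mia3, which helps load procollagen for export, -1.03, FDR = 0.00042) and 0 rose (5 at an unadjusted p under 0.05), and the median difference was 0.18. Among all genes, 8.60% fell and 9.02% rose with IL-23, and 27.2% were higher at that p. Against saline, 4 fell with IMO-8400 and 3 with IMO-3100, where 4.20% and 4.66% of all genes were lower, and the medians of the 16 were -0.34 and -0.45. At an unadjusted p under 0.05, 7 were lower with IMO-8400 and 11 with IMO-3100, where 20.6% and 24.2% of all genes were. At that p, 1 was higher with IMO-8400 and 0 with IMO-3100, where 22.4% and 17.7% of all genes were. Plod3 and Plod2, which hydroxylate lysines of the chains, and P3h1, which hydroxylates prolines, fell with both, and Fkbp14, a prolyl isomerase, fell with IMO-8400 (-1.02, FDR = 0.0093), beside -0.44 with IMO-3100 (FDR = 0.24) and a direct difference of -0.58 (FDR = 0.22). Plod3 had 8.16, 8.42, 8.74, 7.77 and 8.84 in IMO-8400 mice and 8.63, 8.83, 8.36, 7.51 and 8.45 in IMO-3100 mice, against 9.39, 9.69, 9.51, 9.59 and 9.41 in saline mice, with no overlap. The differences were -1.13 (FDR = 0.0036) and -1.16 (FDR = 0.0033). Those of Plod2 were -2.15 (FDR = 0.011) and -1.93 (FDR = 0.021), and those of P3h1 were -1.16 (FDR = 0.0062) and -1.25 (FDR = 0.0043). Plod2 was also lower than in naïve mice with IMO-8400 (-2.77, FDR = 0.0037) and with IMO-3100 (-2.55, FDR = 0.0039). Its saline difference from naïve was -0.62 (FDR = 0.4).

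Of 8 tested genes of procollagen processing and cross-linking, 1 rose and 2 fell with IL-23, where 9.02% of all genes were higher and 8.60% lower. Loxl3, a lysyl oxidase that starts cross-links, rose by 1.63 (FDR = 0.005), and Pcolce2, an enhancer of procollagen cleavage, fell (-1.45, FDR = 0.00086). Adamts3, a protease that trims procollagen, was at least 3.33-fold lower (FDR = 0.0069) against the naïve mean. The naïve mice had 8.21, 5.53, 2.12, 4.93 and 2.87, so that bound does not hold for each of them. The highest was replicate 1, the mouse with the highest hair level. Pcolce2 was higher than in saline mice with IMO-8400 by 1.44 (FDR = 0.002) and with IMO-3100 by 1.16 (FDR = 0.0087), and Lox, the main lysyl oxidase of fibrils, was lower with IMO-3100 (-1.12, FDR = 0.0052), beside -0.99 with IMO-8400 (FDR = 0.0097), just short of the FCH threshold, and a direct difference of 0.12 (FDR = 0.86).

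Of 15 proteins that bind fibrils, 1 rose and 2 fell with IL-23, where 9.02% and 8.60% of all genes did. Against saline, 4 were higher and 1 lower with IMO-8400, where 4.62% and 4.20% of all genes were. With IMO-3100, 1 was higher and 1 lower, where 2.68% and 4.66% of all genes were. None was a DEG between the antagonists in limma, and at an unadjusted p under 0.05 there were 2 higher and 0 lower with IMO-8400. At that p, 15.0% of all genes were higher and 8.14% lower. Tnc, the matrix glycoprotein of wounds, had 10.62, 10.35, 11.98, 10.50 and 12.36 in IMO-8400 mice and 9.32, 9.56, 9.78, 10.83 and 11.01 in IMO-3100 mice. It had 13.38, 13.93, 14.01, 13.34 and 13.60 in saline mice, against 12.41, 10.91, 9.47, 9.37 and 8.35 in naïve mice. Saline mice lay above all the others, by 3.55 over naïve mice (FDR = 0.00013), and the naïve mice ran in the order of their hair marker means. Fmod, a small proteoglycan that guides fibril assembly, fell with IL-23 (-2.53, FDR = 0.00019) and was 1.93 higher with IMO-8400 than with saline (FDR = 0.0037), beside 0.60 with IMO-3100 (FDR = 0.34). Kera, a small proteoglycan best known from cornea, fell with IL-23 as well (-1.80, FDR = 0.00077) and was higher than in saline mice with IMO-8400 by 1.43 (FDR = 0.0082) and with IMO-3100 by 1.11 (FDR = 0.033). The other two higher with IMO-8400 were Tnxb, a tenascin of the dermis, by 1.09 (FDR = 0.009, beside 0.98 with IMO-3100, FDR = 0.017) and Comp, a thrombospondin family glycoprotein, by 1.35 (FDR = 0.019, beside 0.59 with IMO-3100, FDR = 0.31). Tnc was lower than in saline mice with IMO-8400 (-2.49, FDR = 0.0051) and with IMO-3100 (-3.55, FDR = 0.00053).

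Of 7 tested collagen receptors, 1 rose with IL-23 and 0 fell (2 at an unadjusted p under 0.05), where 9.02% of all genes were higher and 8.60% lower. None was a DEG against saline, where an unadjusted p under 0.05 was met by 2 lower with IMO-8400 and by 1 higher and 2 lower with IMO-3100. Among all genes, 27.6% were lower with IL-23 at that p. Against saline, 20.6% were lower with IMO-8400, and 17.7% higher and 24.2% lower with IMO-3100. The riser was Lair1, an inhibitory receptor of immune cells, at 11.12, 11.10, 10.71, 10.54 and 10.04 in saline mice against 3.37, 5.57, 6.25, 7.34 and 6.07 in naïve mice (4.98, FDR = 9e-07). Macrophage marker means rose alongside it, at 12.23 to 12.67 in saline mice and 8.07 to 10.51 in naïve mice, and their part in the value was not tested.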

How the data were processed

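Skin from 20 mice in 4 groups of 5 was hybridised to Affymetrix mouse4302 arrays. The values deposited by the authors are log2 intensities from GCRMA, whose version is not stated, and nothing was normalized again. The number of arrays limits the precision, and no detection calls are in the table. The filter of the study's methods (at least 3 arrays above 2, and SD over 0.1) was applied, and since no value was 2 or less the SD alone acted. The 4 group means were modelled with lmFit and eBayes of limma 3.58.1 (R 4.3.3), and p-values were adjusted by Benjamini-Hochberg over the 30960 probe-sets tested for each of 6 comparisons. The script was tested on simulated data. Genes were named by the platform annotation: 34958 probe-sets carried 1 symbol, 932 more than 1 and 9211 no symbol, and all 42 chains matched RefSeq by Entrez identifier. Chains given per mouse were 11 fixed structural chains and every DEG against saline, or with saline against naïve, or between the antagonists. Of the other lists, at most 4 DEGs are named per list and comparison. Members and lists were chosen with earlier results of these data known. The alternatives were other filters, floors, scalings, probe-set rules, models and thresholds, hair follicle markers as a covariate, and leaving out each mouse. Replicate numbers follow the order of the records. The record of the series speaks of 2 doses of 1 antagonist, whereas the sample labels name the 2 antagonists used here.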

Additional observations from a re-analysis of the deposited data

Results flagged for a closer look

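Of 77 sets of 5 mice looked at (1 named chain in 1 group, leaving out 7 sets near background), 7 held a mouse whose gap to the nearest other was over 0.71 of the range of its group, and chance flags about 5% of such sets if values are normal. That share does not hold for sets lying mostly near the floor, such as Col9a3 in naïve mice and Col24a1 in IMO-8400 mice. Naïve replicate 1, the mouse with the highest hair marker mean, was that mouse in 4 of them: Col17a1 at 12.38 (the other naïve mice 12.95 to 13.18), Col1a2 at 14.45 (14.78 to 14.91), Col7a1 at 7.69 (8.89 to 9.16) and Col9a3 at 3.12 (2.69 to 2.72). The others included Col24a1 in IMO-8400 replicate 5 at 3.51 (2.02 to 2.23), the mouse of that group with the highest hair mean. Col24a1 was 2.13, 2.23 and 2.23 in naïve replicates 1, 2 and 3, whose hair means were higher still. The rest were Col4a6 in IMO-3100 replicate 2 at 9.30 (8.76 to 8.90) and Col4a5 in saline replicate 3 at 6.39 (6.91 to 7.07). What sets the flagged mice apart was not tested.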

How the results depend on the processing

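The calls of Col4a5 and Col4a6 in saline against naïve mice and in each antagonist against saline held under all 11 other settings run for single genes and with any 1 mouse left out, and so did the IL-23 calls of Col8a1, Col8a2, Col15a1 and Col16a1. With values under 4 set to 4, and in a model of the 2 groups alone, the chains higher with IL-23 numbered 1, Col24a1 being lost, and the chains lower with IMO-8400 than with saline also numbered 1. That count was 1 as well under the stricter filter, which left out Col24a1, and with the mean of all probe-sets of a gene, where Col12a1 was lost. Without the FCH threshold, 4 chains were higher and 14 lower with IL-23, 5 higher and 4 lower with IMO-8400 than with saline, 7 lower with IMO-3100 than with saline, 1 higher and 16 lower with IMO-3100 than in naïve mice, and 8 lower with IMO-8400 than in naïve mice. Of all genes, 23.4% were then higher and 23.6% lower with IL-23, 16.2% and 14.4% with IMO-8400 against saline, 17.8% lower with IMO-3100 against saline, 13.0% and 16.9% with IMO-3100 against naïve mice, and 8.63% lower with IMO-8400 against naïve mice. Quantile normalization gave 1 higher chain with IMO-3100 than in naïve mice. Against naïve mice, IMO-8400 gave 2 lower chains with the mean of all probe-sets, 3 with the hair follicle mean as a covariate, and 4 with naïve replicates 1, 2 and 3 left out together, an alternative chosen after seeing the data. With that covariate the difference of Col11a1 between saline and naïve mice reversed to 0.55. Further calls lost were those of Col24a1 with IL-23 and of Col8a2 and Col12a1 with IMO-3100 against naïve mice, both with that covariate and without those 3 mice, and that of Col18a1 with the covariate. Against saline, IMO-3100 lost Col24a1 and Col9a3 with the floor of 4, Col9a3 with the mean of all probe-sets and Col8a1 with no filter. Against naïve mice, IMO-3100 lost Col27a1 and Col12a1 with the mean of all probe-sets and Col12a1 with the 2 groups alone. The IL-23 call of Col11a1 was lost with no filter, with the floor of 4, with the 2 groups alone and with the covariate. The cause of these changes was not tested beyond what each alternative alters. Leaving out 1 mouse at a time gave 2 to 5 higher and 1 to 2 lower chains with IMO-8400 than with saline, 0 to 1 lower with IMO-8400 than with IMO-3100, 0 to 1 higher with IMO-3100 than in naïve mice, and 0 to 1 higher and 0 to 3 lower with IMO-8400 than in naïve mice. No paired analysis was possible because the replicate numbers only follow the order of the records. For chains near the background of 2 to 3, these arrays give only a lower bound of a fold.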
